A study of Homo sapiens with 3 samples.

Results

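The genes described here encode the proteins of the mitochondrial ribosome, the particle that translates the few messenger RNAs made inside mitochondria. They were taken by symbol: every probe whose platform gene symbol was MRPL or MRPS followed by a number, which gave 110 probes of 76 genes among 47231 probes and 20039 named genes on the array. By symbol 48 genes belong to the large subunit (MRPL) and 28 to the small subunit (MRPS). Probes named for the pseudogenes MRPS31P5 and MRPL42P5 and for the antisense RNAs MRPL20-AS1 and MRPL23-AS1 were left out, since none of these makes a ribosomal protein. RNA came from MDA-MB-231, an established human cell line from a basal breast carcinoma, which the series calls deficient in ASS1, the enzyme that makes argininosuccinate on the way to arginine. The first sample was kept in 0.3 µg/ml ADI-PEG20 for 48 h. The second had 24 h of ADI-PEG20 and then 24 h of L-arginine at 420 µg/ml (arginine-return cells), and the third was left untreated for 48 h. ADI-PEG20 is a pegylated arginine deiminase that breaks down arginine in the medium. In the arginine-return label the dose of ADI-PEG20 reads 0.3 and its unit is cut off. Each condition had 1 array, so every difference below compares arrays, has no spread between cultures to be set against, and carries no test.

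Mitochondrial ribosomes make the hydrophobic core subunits of the respiratory chain and of the ATP synthase. Their RNAs are transcribed from mitochondrial DNA, but all of their proteins are encoded in the nucleus, made in the cytosol and imported. The small subunit binds messenger RNA and decodes it, and the large subunit joins the amino acids and passes the chain out through an exit tunnel towards the inner membrane. Many of the proteins descend from those of bacterial ribosomes, and the others were added during the evolution of mitochondria.

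All 76 genes were above background on all 3 arrays on their brightest probe, which stands for the gene below. Background was set at an intensity of 163.6, the mode of all intensities plus 3 SDs of its lower side. Of the 110 probes 102 were above it on all 3 arrays, 3 on a single array and 5 on none. The brightest-probe intensities ran from 221 to 8996 under ADI-PEG20, with a median of 1327, from 218 to 11339 in arginine-return cells, with a median of 1395, and from 235 to 11775 in untreated cells, with a median of 1370. Probe signals depend on probe sequence, so levels are compared between arrays and not between genes. The deposited arrays share a single distribution of values, which hides any change common to all transcripts, and fewer cells cannot be told apart from less RNA per cell. Of 8 markers of basal and mesenchymal cells 7 were above background on all 3 arrays, among them VIM, and SPARC was not. Of 8 luminal markers KRT19, EPCAM, CDH1 and ERBB3 were above it on all 3 arrays, GATA3 on 1, and ESR1, PGR and FOXA1 on none. Leukocyte markers were above background on all 3 arrays for 1 of 3 (CD14), endothelial markers for 0 of 4 and fibroblast markers for 1 of 4 (LUM). PECAM1 of endothelium and COL1A2 of fibroblasts were above it on 2 arrays each, and PTPRC, CD3E, CDH5, VWF, KDR, COL1A1 and DCN on none.

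The first comparison set cells given ADI-PEG20 for 48 h beside untreated cells. Differences are of log2 values of background-corrected intensity. Transcripts of the mitochondrial ribosome differed little, and in both directions. The median difference was -0.06 over the 76 genes, against -0.0033 over the 11092 genes above background on either array, with 30 members higher than untreated cells and 46 lower, where 49.6% of all genes were higher and 50.3% lower. No member was 1.5-fold or more higher, where 7.92% of all genes were. There were 4 members 1.5-fold or more lower, which is 5.26% of them, where 9.34% of all genes were. None was 2-fold or more away in either direction, where 1.75% of all genes were higher and 2.14% lower. The SD of the differences was 0.29 over the members and 0.46 over all genes. A difference under 0.25 was found for 48 members, or 63.2%, and for 46.8% of all genes.

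Many members were bright, and bright genes had fewer large differences in these arrays. Among the 2834 genes with a mean intensity of 1000 or more, 4.66% were 1.5-fold or more higher under ADI-PEG20 and 6.03% were lower. Of the 55 members that bright, none was higher by that much and 4, or 7.27%, were lower. The share of lower members was close to that of all bright genes. In that brightness range 58.2% of members and 56.5% of all genes differed by less than 0.25.

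**Figure D1:**
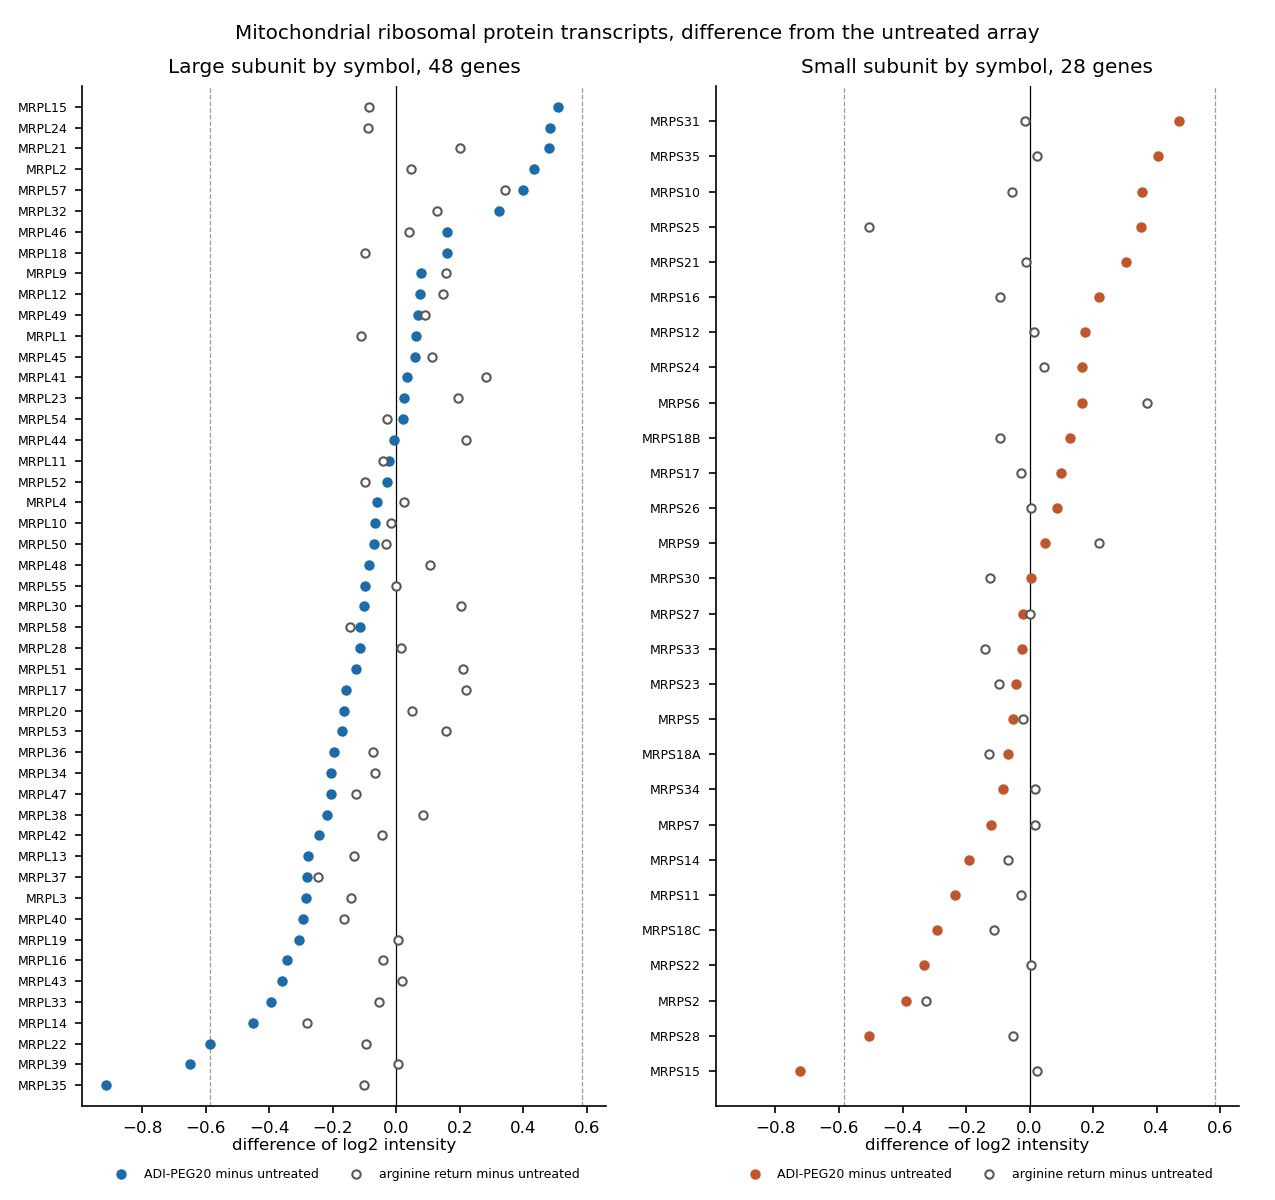
Difference of log2 intensity from the untreated array for each of the 48 large-subunit genes (left) and 28 small-subunit genes (right), with ADI-PEG20 as filled and arginine return as open points; dashed lines mark 1.5-fold. Filled points spread from -0.91 (MRPL35) to 0.51 (MRPL15), and most open points lie near 0.

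The lowest member was MRPL35, a protein of the large subunit with a bacterial counterpart. Its intensity was 1787 under ADI-PEG20, 3046 in arginine-return cells and 3258 in untreated cells. The ADI-PEG20 array stood apart from the other 2, with a difference of -0.91 from untreated cells, or 1.88-fold lower. MRPS15, which binds the ribosomal RNA of the small subunit, had 1118 under ADI-PEG20, 1790 after arginine and 1765 in untreated cells, a difference of -0.72. MRPL39, a large-subunit protein with no bacterial ribosomal counterpart, had 1276, 1940 and 1933 in the same order, a difference of -0.65. In all 3 genes the arginine-return and untreated arrays were close to each other and the ADI-PEG20 array was low.

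MRPL22, whose bacterial relative lines the exit tunnel, had 1595 under ADI-PEG20, 2195 after arginine and 2335 in untreated cells. Its difference of -0.586 lay just past the 1.5-fold line of -0.585. MRPS28, a small-subunit protein, had 775 under ADI-PEG20, 1016 after arginine and 1050 in untreated cells, a difference of -0.51. MRPL14, which sits at the face of the large subunit towards the small one, had 3498 under ADI-PEG20, 3926 after arginine and 4741 in untreated cells, a difference of -0.45. For MRPL14 the arginine-return value lay between the others, so that the untreated array was the highest.

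At the other end MRPL15, a core protein of the large subunit, had 1793 under ADI-PEG20, 1230 in arginine-return cells and 1297 in untreated cells. The difference of 0.51, or 1.42-fold, was the highest among the members. MRPL24, whose bacterial relative starts the assembly of the large subunit and sits by the mouth of the tunnel, had 5708 under ADI-PEG20, 3878 after arginine and 4115 in untreated cells, a difference of 0.48. MRPL21 had 4122, 3415 and 2990 in the same order, again a difference of 0.48, and its arginine-return value lay between the others. Among these large-subunit genes the ADI-PEG20 array was the highest of the 3.

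MRPS31, a small-subunit protein found in mitochondria and not in bacteria, had 1204 under ADI-PEG20, 894 after arginine and 902 in untreated cells, a difference of 0.47. MRPL2, which lies beside the site of peptide bond formation, had 1335 under ADI-PEG20, 1049 after arginine and 1020 in untreated cells, a difference of 0.43. MRPS35, another small-subunit protein of mitochondria, had 1701, 1336 and 1316 in the same order, a difference of 0.40. Members with high and low values under ADI-PEG20 thus included proteins of both subunits and of both evolutionary origins.

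**Figure D2:**
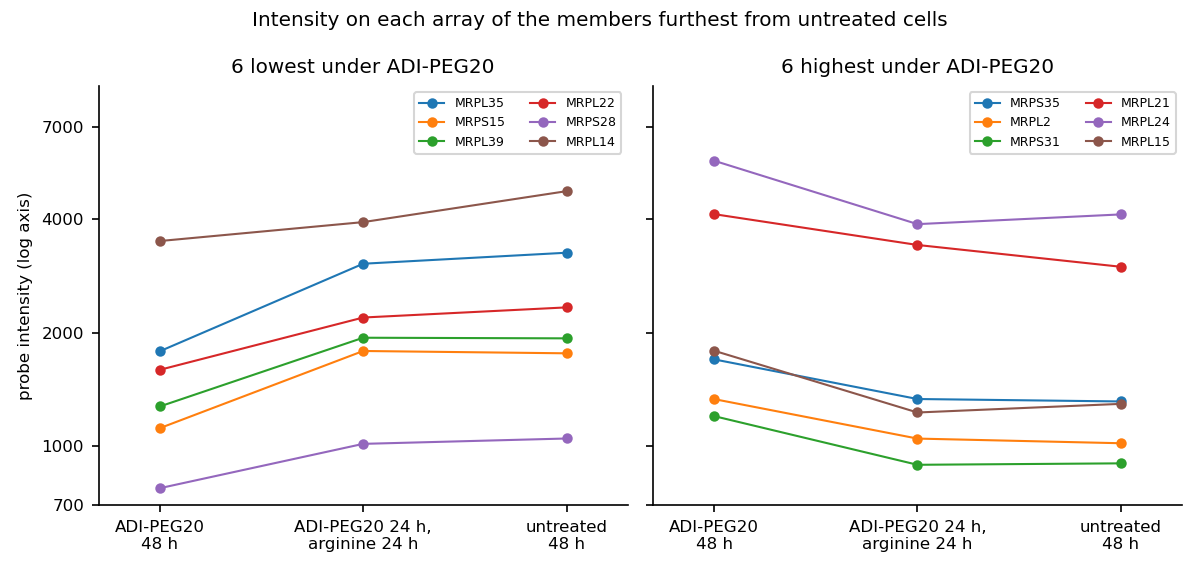
Probe intensity (log axis) on the ADI-PEG20, arginine-return and untreated arrays for the 6 members with the lowest and the 6 with the highest difference under ADI-PEG20; lines join the values of a gene and 1 array stands for each condition. The ADI-PEG20 value is the lowest of the 3 in every gene on the left and the highest in every gene on the right, which the choice of genes by their difference from untreated cells partly fixes.

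Where a gene has more than 1 probe, the probes give an error for a difference. The SD was 0.22 over 2589 genes with 2 probes above background on both arrays, and it covers probes and different transcripts of a gene but not cultures. Past 2 times that error, 0.448, lay 10 members, which is 13.2% of them, where 28.4% of all genes lay. The 10 were 6 lower and 4 higher members, where 14.7% of all genes were lower by that much and 13.7% higher. The other 66 members differed from untreated cells by less than 2 times that error, which came from all genes. Over the 22 members with 2 such probes the SD was 0.17, and with a limit drawn from it more members would lie past. Bright genes alone were not counted at this limit.

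Probes agreed for some of the members above and not for others. Of 22 members with 2 probes above background, 17 had the same sign on both under ADI-PEG20, or 77.3%, beside 73.7% of all genes. MRPL24 gave 0.48 and 0.43, MRPL21 gave 0.48 and 0.34, and MRPL22 gave -0.59 and -0.36. MRPL3, which forms part of the core around the peptidyl transferase centre, gave -0.28 and -0.30, although the dimmer probe was near the background limit. MRPS12, the protein whose bacterial relative sets decoding accuracy, gave 0.17 and 0.16, with intensities on the brighter probe of 7059 under ADI-PEG20, 6327 after arginine and 6271 in untreated cells.

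MRPL35 gave -0.91 on its brightest probe, -0.23 on the next and 0.09 on the dimmest, so the size and the sign of its difference depended on the probe. The 2 dimmer probes were well above background, with 588 and 450 under ADI-PEG20, 668 and 444 after arginine and 668 and 430 in untreated cells. MRPL33, a small protein of the large subunit, was bright on both of its probes and the probes disagreed. The brighter had 8996 under ADI-PEG20, 11339 after arginine and 11775 in untreated cells, a difference of -0.39. The other had 6714, 6033 and 5483 in the same order, a difference of 0.30. MRPL43, a protein of the large subunit with several known transcripts, gave -0.36 and -0.16 on 2 bright probes and 0.43 on the dimmest, whose intensity of 181 under ADI-PEG20 and 165 in untreated cells was at the background limit. Which transcripts these probes detect was not analysed here.

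**Figure D3:**
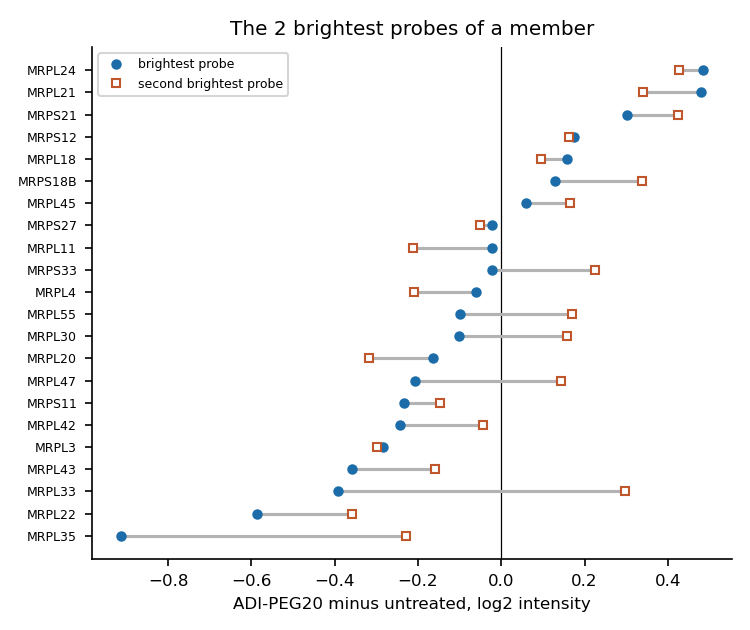
ADI-PEG20 minus untreated difference of log2 intensity for the brightest (circles) and the second brightest probe (squares) of the 22 members with both above background on both arrays. Signs agree in 17 genes, and MRPL33 and MRPL35 have the widest gaps.

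Large-subunit and small-subunit transcripts were set beside each other. Under ADI-PEG20 the 48 large-subunit genes had a median difference of -0.10 from untreated cells, with 16 higher and 32 lower, and the 28 small-subunit genes had -0.0078, with 14 higher and 14 lower. Of all genes 49.6% were higher and 50.3% lower. Of the large-subunit genes 3, or 6.25%, were 1.5-fold or more lower, and of the small-subunit genes 1, or 3.57%. Both shares were below the 9.34% of all genes. The large-subunit median was thus lower by 0.09, with an SD within each subunit of 0.29 and 0.28. Among the members of mean intensity 1000 or more the gap between subunits was wider, at -0.25. No replicate is at hand to say whether gaps of this size recur.

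Symbols do not always give the place of a protein. MRPS18A and MRPS30 carry small-subunit names, but structures of the mammalian ribosome place both in the large subunit. MRPS30 had 1856 under ADI-PEG20, 1705 after arginine and 1849 in untreated cells, a difference of 0.0058. MRPS18A had 610 under ADI-PEG20, 591 after arginine and 635 in untreated cells, a difference of -0.07. With both moved to the large subunit its median was -0.09, and that of the small subunit was 0.01.

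The MRPS18 genes are 3 relatives of a single bacterial protein. MRPS18B had 3218 under ADI-PEG20, 2776 after arginine and 2954 in untreated cells, a difference of 0.13, with 0.34 on its dimmer probe. MRPS18C, the closest to the bacterial protein in its place on the ribosome, had 2993 under ADI-PEG20, 3372 after arginine and 3633 in untreated cells, a difference of -0.29. The relatives thus did not share a direction under ADI-PEG20, and all 3 differences lay within 2 times the error between probes.

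Members listed with a bacterial counterpart (the bacterial group) numbered 44 and the other members 32. Of the MRPS18 genes the list held MRPS18C only. MRPS18A and MRPS18B were thus counted with the others, although they are relatives of a bacterial protein. Under ADI-PEG20 the bacterial group had a median of -0.08 and an SD of 0.32, and the other members had -0.04 and 0.24. Of the genes past 1.5-fold, MRPL35, MRPS15 and MRPL22 belong to the bacterial group and MRPL39 does not. By region of the large subunit, 5 genes belong to the stalk that recruits translation factors (MRPL10, MRPL11, MRPL12, MRPL53 and MRPL54). On their brightest probe all 5 differed by less than 0.25, from -0.17 to 0.07, where 46.8% of all genes did. Dimmer probes of MRPL11, above background on all 3 arrays, gave -0.21 and -0.35. Of the stalk genes, MRPL12 has in human cells also been found bound to the mitochondrial RNA polymerase. It had 1268 under ADI-PEG20, 1328 after arginine and 1210 in untreated cells, a difference of 0.07. The 10 genes listed for the exit tunnel and membrane side ranged from -0.65 (MRPL39) to 0.48 (MRPL24), with a median of -0.08. Over all 48 large-subunit genes the range was -0.91 to 0.51. Ranges of regions with unlike numbers of genes are not ranked here. The 5 genes of the central protuberance, the crown of the large subunit, ranged from -0.29 to 0.16.

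The next comparison set arginine-return cells beside cells kept in ADI-PEG20. It shares the ADI-PEG20 array with the first, so the value of that array enters here with the opposite sign. The median difference was 0.08 over the 76 members, against -0.00083 over 11072 genes, with 48 members higher and 28 lower, where 49.8% of all genes were higher and 50.1% lower. There were 3 members 1.5-fold or more higher, or 3.95%, where 9.9% of all genes were, and 2 lower, or 2.63%, where 8.88% of all genes were. The 3 were MRPL35 at 0.81, MRPS15 at 0.74 and MRPL39 at 0.66, followed by MRPL22 at 0.49, MRPS28 at 0.45 and MRPL17 at 0.38. The other probes of MRPL35 gave 0.23 and -0.03, and with the mean over its probes MRPL35 was at 0.34, which left 2 members 1.5-fold or more higher. None was 2-fold away, where 2.07% of all genes were higher and 1.87% lower. Past 2 times the error between probes were 5 members higher and 4 lower, where 15.6% of all genes were higher and 14.7% lower. Among those of mean intensity 1000 or more, 3 members were 1.5-fold or more higher and 1 lower, where 7.09% of all bright genes were higher and 4.98% lower.

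The lowest after arginine return, relative to continued ADI-PEG20, was MRPS25, a small-subunit protein of mitochondria, at -0.86. Its intensities were 218 in arginine-return cells and 296 under ADI-PEG20, with 258 in untreated cells, so its arginine-return value was the lowest of the 3 and all lay within a short distance of background. The next were MRPL15 at -0.59, MRPL24 at -0.57 (-0.70 on its dimmer probe), MRPS31 at -0.49, MRPS10 at -0.41 and MRPL2 at -0.39. MRPS10, of the head of the small subunit, had 5150 in arginine-return cells and 6811 under ADI-PEG20, with 5349 in untreated cells. Except for MRPS25, these were genes whose arginine-return and untreated values were close together.

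By subunit the medians of this comparison were 0.13 for the large subunit, with 35 of 48 higher, and -0.06 for the small subunit, with 13 of 28 higher. Of all genes 49.8% were higher. The gap of 0.18 again used the ADI-PEG20 array of the first comparison. With MRPS18A and MRPS30 counted in the large subunit it was 0.12. The probes of MRPL30, a large-subunit gene, disagreed in this comparison, with 0.31 on the brighter and -0.23 on the dimmer. The brighter had 542 in arginine-return cells and 462 under ADI-PEG20, with 487 in untreated cells.

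The last comparison set arginine-return cells beside untreated cells. Members of the mitochondrial ribosome were at nearly the same level on both arrays. The median difference was -0.02 over the 76 genes, against -0.0069 over 11035 genes, with 35 members higher and 41 lower, where 48.6% of all genes were higher and 51.3% lower. No member was 1.5-fold or more away in either direction, where 2.56% of all genes were higher and 2.64% lower, and 0.353% and 0.326% were 2-fold or more higher and lower. A difference under 0.25 was found for 70 members, or 92.1%, against 71.9% of all genes. Among genes of mean intensity 1000 or more, however, 1 of 2834, or 0.0353%, was 1.5-fold or more lower and 0 were higher. Of these genes 88.4% and of the 55 members 94.5% differed by less than 0.25. The subunits had medians of 0.0022 (large) and -0.02 (small).

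The highest members after arginine return were MRPS6 at 0.37, MRPL57 at 0.34, MRPL41 at 0.28, MRPL17 at 0.22, MRPL44 at 0.22 and MRPS9 at 0.22. MRPS6, a small-subunit protein of bacterial origin, had 9659 in arginine-return cells, with 8397 under ADI-PEG20 and 7505 in untreated cells. Its arginine-return value was the highest of the 3. MRPL57, a short large-subunit protein, was among the dimmest members, with 269 in arginine-return cells, 275 under ADI-PEG20 and 238 in untreated cells. MRPL17, of the tunnel side, had 4262 in arginine-return cells, 3305 under ADI-PEG20 and 3674 in untreated cells. MRPL41, a protein of the large subunit found in mitochondria only, had 2665 in arginine-return cells, 2263 under ADI-PEG20 and 2213 in untreated cells.

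The lowest were MRPS25 at -0.50, MRPS2 at -0.32, MRPL14 at -0.28, MRPL37 at -0.25, MRPL40 at -0.16 and MRPL58 at -0.15. MRPS2 had 781 in arginine-return cells, 753 under ADI-PEG20 and 947 in untreated cells, so both treated arrays were below the untreated one. The same held for MRPL37, a large-subunit protein, with 3388 in arginine-return cells, 3310 under ADI-PEG20 and 3999 in untreated cells. MRPL58, a large-subunit protein that can release chains from stalled ribosomes, had 1139 in arginine-return cells, 1161 under ADI-PEG20 and 1247 in untreated cells. Of the members 0 were higher and 1, MRPS25, was lower by more than 2 times the error between probes, 0.387, where 6.5% of all genes were higher and 6.65% lower. MRPS25 was measured close to background. In this comparison 8 of 22 members had the same sign on both probes, or 36.4%, beside 59.1% of all genes. MRPS24, a bright small-subunit member, had 4855 in arginine-return cells, 5267 under ADI-PEG20 and 4709 in untreated cells. MRPS14, a dim small-subunit member, had 230 in arginine-return cells, 221 under ADI-PEG20 and 235 in untreated cells.

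**Figure D4:**
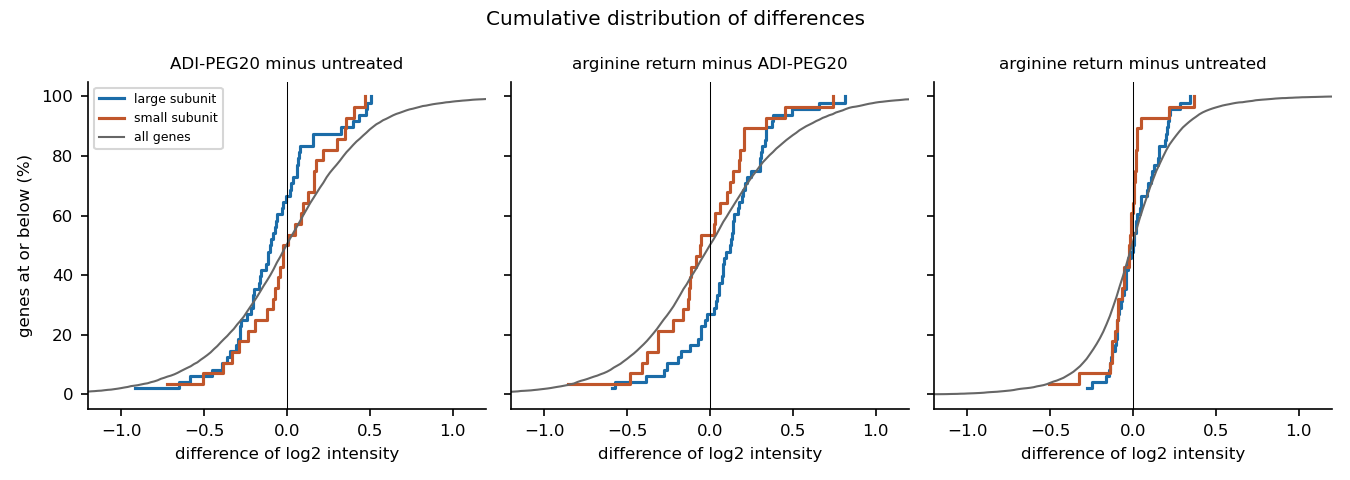
Share of genes (%) at or below each difference of log2 intensity in the 3 comparisons, for the large subunit, the small subunit and all genes above background. Both subunits rise more steeply than all genes, which were not matched to the members for brightness. Under ADI-PEG20 the large subunit lies left of the small one (medians -0.10 and -0.0078).

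Over the 3 arrays, 40 of 76 members, or 52.6%, had their lowest value under ADI-PEG20, and 22, or 28.9%, had their highest there. Among the 9815 genes above background on all 3 arrays the shares were 41.7% lowest and 41.3% highest under ADI-PEG20. The median range over the arrays was 0.24 for members and 0.34 for those genes, which were not matched to the members for brightness. Across the 76 members, differences under ADI-PEG20 had a Pearson's r of -0.03 and a Spearman's rho of 0.01 with mean log2 intensity, as a description over genes of the same arrays.

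Other genes of mitochondrial translation were placed beside the ribosomal proteins. A list of 6 further genes without the MRPL or MRPS symbol had 5 on the array, among them KGD4, once named as a small-subunit protein and now assigned to the oxoglutarate dehydrogenase complex. Without KGD4, which was at 0.30, there were 4 subunits (DAP3, PTCD3, GADD45GIP1 and CHCHD1), of which 3 were higher under ADI-PEG20, with a median of 0.31 and 0 past 1.5-fold, where 49.6% of all genes were higher and 7.92% were 1.5-fold or more higher. DAP3, the small-subunit protein that binds GTP, had 3045 under ADI-PEG20, 2552 after arginine and 2264 in untreated cells, a difference of 0.45. PTCD3, which helps mRNA reach the small subunit, was at 0.37. It was close to the background limit, with 200 under ADI-PEG20, 184 after arginine and 182 in untreated cells. GADD45GIP1, at 0.24, was also dim, with 288, 269 and 263 in the same order. CHCHD1 was the lower gene, at -0.07. Of 15 translation factors 12 were higher, the median was 0.18, and 0 were 1.5-fold or more higher and 1 lower, or 6.67%, where 49.6% of all genes were higher, 7.92% were 1.5-fold or more higher and 9.34% lower. LRPPRC, which stabilises mitochondrial mRNAs, had 1525 under ADI-PEG20, 1187 after arginine and 1079 in untreated cells, a difference of 0.55. C1QBP, a matrix protein needed for mitochondrial translation, had 9080, 7397 and 6360 in the same order, a difference of 0.52. TSFM, the factor that exchanges the nucleotide bound to TUFM, was the gene past 1.5-fold, with 270 under ADI-PEG20, 333 after arginine and 345 in untreated cells, a difference of -0.59.

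Assembly factors had a median of -0.05 and a mean of 0.05 over 22 genes. Of all genes 49.6% were higher and 50.3% lower, and of the 22 assembly factors 8 were higher and 14 lower. Of these 2, or 9.09%, were 1.5-fold or more higher and 1, or 4.55%, lower, where 7.92% and 9.34% of all genes were. GTPBP10, a GTPase of large-subunit assembly, had 255 under ADI-PEG20, 209 after arginine and 174 in untreated cells, a difference of 1.33 that starts near the background limit. NSUN4, which methylates small-subunit ribosomal RNA and joins large-subunit assembly, was at 0.73. METTL17, a factor of small-subunit assembly, had 698 under ADI-PEG20, 1046 after arginine and 992 in untreated cells, a difference of -0.60. The ribosomal proteins and the assembly factors thus had medians just below 0 under ADI-PEG20, and the translation factors and the 4 subunits with other names had medians above it.

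The stretch before the start of a gene was then searched for short motifs, since promoters of mitochondrial ribosomal proteins are known for sites of ETS factors, of NRF1 and of YY1. Windows of 250 bases before to 50 after the start, from RefSeq on GRCh38.p14, were found for 68 of the 76 genes, not for MRPL2, MRPL10, MRPL13, MRPL15, MRPL21, MRPL23, MRPL35 and MRPS28. The letters CCGGAAG (ETS), on either strand, were in a window of 29 of the 68 genes, or 42.6%, against 22.4% of 9205 genes above background on any array and 12.2% of 27305 genes with a window. AAGATGGCG (YY1) was in 13 genes, or 19.1%, against 4.76% and 2.14%. The NRF1 motif, GCGC and TGCGC around any base, was in 9 genes, or 13.2%, against 13.6% and 6.98%. CCAAT was in 22 genes, or 32.4%, against 43.9% and 39.7%. No site of ETS, NRF1 or YY1 overlapped a site of another of these motifs. A match is a description of letters and not evidence that a factor binds. Shares are over genes, and a gene with several windows counts if any of them holds the letters.

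**Figure D5:**
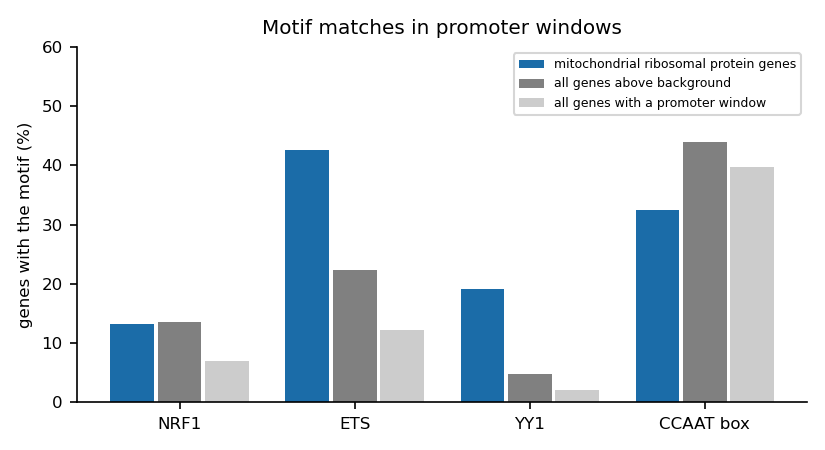
Share of genes (%) with at least 1 match to each motif in a promoter window, for the mitochondrial ribosomal protein genes, all genes above background and all genes with a window. ETS letters were in 42.6%, 22.4% and 12.2% of these, and YY1 letters in 19.1%, 4.76% and 2.14%.

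The 150 bases before the start are printed for 4 members, 5′ to 3′ on the strand of the gene, with ETS or NRF1 letters in capitals. Where a gene had several windows, the printed one had the most ETS, NRF1 and YY1 sites in this stretch. MRPS31 and MRPS10, higher than untreated cells under ADI-PEG20 (0.47 and 0.36), and MRPS22, lower (-0.33), have ETS letters in the printed stretch. MRPL17, at -0.16, has NRF1 letters and no ETS letters. ETS letters thus stood before genes of either direction, although MRPS10 and MRPS22 lay within 2 times the error between probes, 0.448.
MRPS31 (chr13:40771191-40771340, minus strand): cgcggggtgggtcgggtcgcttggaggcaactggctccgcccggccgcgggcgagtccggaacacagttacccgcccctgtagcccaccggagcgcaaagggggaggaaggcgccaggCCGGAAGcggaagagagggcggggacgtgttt
MRPS10 (chr6:42217862-42218011, minus strand): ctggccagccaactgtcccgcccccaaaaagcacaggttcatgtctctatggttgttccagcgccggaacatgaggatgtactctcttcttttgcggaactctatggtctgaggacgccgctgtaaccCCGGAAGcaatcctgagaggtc
MRPS22 (chr3:139343870-139344019, plus strand): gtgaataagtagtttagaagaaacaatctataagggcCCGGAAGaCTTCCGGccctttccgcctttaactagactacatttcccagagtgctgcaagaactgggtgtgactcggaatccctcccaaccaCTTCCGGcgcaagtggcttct
MRPL17 (chr11:6683341-6683490, minus strand): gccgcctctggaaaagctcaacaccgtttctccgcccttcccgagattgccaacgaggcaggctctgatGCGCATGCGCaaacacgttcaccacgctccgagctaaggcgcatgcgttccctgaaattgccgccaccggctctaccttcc

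MRPS31 and MRPS10 each have 1 ETS site in the printed stretch, within the last part before the start. MRPS22, with 2162 under ADI-PEG20, 2699 after arginine and 2691 in untreated cells, has 3 ETS sites in the printed stretch, of which the first 2 lie on opposite strands side by side. Counted from another start of MRPS22, only these first 2 lie before the start. MRPL17 has the NRF1 letters in their palindromic form. Members without a window, among them MRPL35 (-0.91), MRPS28 (-0.51), MRPL15 (0.51), MRPL21 (0.48) and MRPL2 (0.43), entered none of the medians that follow. Members with ETS letters had a median of -0.10 under ADI-PEG20 and those without had -0.02. By subunit, large-subunit members had -0.16 with the letters and -0.04 without, and small-subunit members had 0.03 with them and 0.0058 without. Members with YY1 letters had -0.03 and those without -0.08. In the large subunit these medians were -0.13 and -0.11, and in the small subunit 0.13 and -0.02. For NRF1 the medians were -0.10 with and -0.06 without, and for CCAAT -0.04 with and -0.09 without. By subunit NRF1 gave -0.16 and -0.11 (large) and 0.01 and 0.0058 (small, 2 genes with the letters). CCAAT gave -0.07 and -0.11 (large) and -0.02 and 0.11 (small). The order of the medians thus differed between subunits for each motif, not for ETS alone. Counted in each window, 10 of 14 YY1 sites lay after the start and 4 before it.

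Some genes of the mitochondrial ribosome start close to a gene on the other strand. Among the 68 members with a window 19 had a protein-coding neighbour whose start lay within 1000 bases in head-to-head orientation. The same share over all genes was not counted, so 19 cannot be called many or few. They made 18 pairs, of which 1 joins 2 members (MRPL46 and MRPS11). In 17 pairs the partner was above background on all 3 arrays. Both genes lay on the same side of untreated cells under ADI-PEG20 in 6 of the 17 pairs. In only 6 of the 17 was the member 0.25 or more from 0, so most signs are those of small differences. HIRA, the partner of MRPL40, was near the background limit, with 166 under ADI-PEG20 and 167 in untreated cells. The count therefore says little on whether paired genes moved together or apart. Across the 17 pairs, measured on the same arrays, Pearson's r of the differences was -0.12 and Spearman's rho -0.25. MRPL46, of the central protuberance, was at 0.16 and MRPS11, of the small-subunit platform, at -0.23.

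The partners named here were chosen after their values were seen. SARS2, the mitochondrial seryl-tRNA synthetase gene, starts 181 bases from MRPS12 and had 490 under ADI-PEG20, 851 after arginine and 905 in untreated cells, a difference of -1.09. MRPS12 was at 0.17 on the same arrays. NCAPD2, a condensin subunit gene of mitosis, starts 840 bases from MRPL51 and had 441 under ADI-PEG20, 839 after arginine and 947 in untreated cells, a difference of -1.37. MRPL51, a large-subunit protein, had 4090, 5130 and 4450 in the same order, a difference of -0.13. PIERCE1, a gene of motile cilia, starts 96 bases from MRPS2 and was at -0.67, beside -0.39 for MRPS2. Of the 17 partners these 3, or 17.6%, were 1.5-fold or more away, where 13.6% of the 9815 genes above background on all 3 arrays were. CYB5RL, the partner of MRPL37, is not among the 17, since it was below background under ADI-PEG20. It had 158 under ADI-PEG20, 188 after arginine and 233 in untreated cells, at least 2.63-fold lower under ADI-PEG20 when set against the lowest signal above background on that array.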

How the data were processed

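Per the labels' protocols, RNA of the 3 samples was labelled with biotin and read on Illumina bead arrays with 1 colour. The authors deposited probe intensity on a linear scale. The submitters' processing notes name GenomeStudio, and how values were normalized is not given in the sources used here. Minima, maxima and quartiles were near equal on the 3 arrays, as after quantile normalization. A second deposited table was not used: the names of its 6 columns could not be tied to single samples.

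Intensity was corrected by normexp (background mode 137.1, SD 8.83, exponential mean 425), raised by an offset of 16 and put on the log2 scale, with numpy 2.4.6 and scipy 1.17.1. The steps were tested on simulated data. A gene is its probe with the highest mean and entered a comparison if above background on either array. Symbols of the 110 probes came from the platform annotation, and all 76 genes matched RefSeq by gene identifier. The labels and files name no genome build, so no coordinates are given except those of RefSeq promoter windows.

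Named members were the 6 furthest from 0 in each direction of each comparison, the 5 brightest, the 3 dimmest, those with probes of opposite sign more than 0.5 apart, and MRPS18A, MRPS18B, MRPS18C, MRPL12, MRPS12 and MRPS30, 35 in all. Of each other list the 3 furthest under ADI-PEG20 were named. MRPL3, MRPL46, MRPL51, MRPS11, MRPS22, CHCHD1, GADD45GIP1 and the head-to-head partners were added after their values were seen, and KGD4 was left out of its list after seeing the data. The members and lists were chosen with earlier results of these data known. Alternatives changed the background correction, offset, filter, probe choice, centring and subunit assignment. The number of arrays limits the precision.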

Additional observations from a re-analysis of the deposited data

How the results depend on the processing

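No paired analysis was possible because each condition had a single array, and for the same reason no array could be left out. All 76 members were above background on every array, so filters on dim probes and bounds changed none of the medians or counts of the members. Under ADI-PEG20 the median stayed between -0.06 and -0.04 and the gap between subunits stayed negative in every setting. The count of members 1.5-fold or more lower was 4. It was 3 without background correction, with an offset of 50 and when centred on the median of all genes, which each put MRPL22 just inside the line, and 2 with the mean over the probes of a gene, where MRPL35 was at -0.35 and MRPL22 at -0.47. In arginine return against ADI-PEG20, 2 members were 1.5-fold or more lower, but 0 without background correction, 1 with an offset of 50 and 1 among members of mean intensity 1000 or more. With the mean over the probes of a gene the count was 3, and MRPL24 was at -0.64. In the same comparison the median was 0.054 among those bright members, and the gap between subunits was 0.12 with subunits assigned by structure and 0.26 among bright members. The bright members, a choice made after seeing the data, also had a gap of -0.25 under ADI-PEG20 and of -0.021 for arginine return against untreated cells, the last with the opposite sign to 0.03 over all members. The median of arginine return against untreated cells was -0.02, and 0.0060 with the mean over probes. Without background correction 244 of all genes were 1.5-fold or more higher under ADI-PEG20 and 325 lower, against 878 and 1036. With no filter these counts were 1108 and 1235, and with genes above background on all 3 arrays 583 and 751. The causes were not tested.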
